A study of Mus musculus with 8 samples.

Results

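The 39 Hox genes of the mouse were followed in fibro-adipogenic progenitors (FAPs), the mesenchymal progenitors that lie between the fibers of skeletal muscle, after injury of the tibialis anterior muscle. They were taken as every entry whose symbol was Hoxa, Hoxb, Hoxc or Hoxd followed by a number, which gave 39 of 55276 gene symbols: 11 in HoxA (chromosome 6), 10 in HoxB (chromosome 11), 9 in HoxC (chromosome 15) and 9 in HoxD (chromosome 2). The study sorted GFP+ FAPs, negative for lineage markers of other cells, from freeze-pierce-injured muscle of mice aged 4 to 6 months, and sequenced polyadenylated RNA in 8 libraries. Controls were Osr1 flox/+ CAGG Cre+ and knockouts (Osr1cKO) were Osr1 flox/flox CAGG Cre+, with 2 libraries per genotype at 3 days post injury (dpi) and 2 at 7 dpi. Every mouse, control or knockout, carried the tamoxifen-inducible Cre, which acts in all tissues, and received tamoxifen with the injury. Recombination puts eGFP in the place of Osr1, so the sorted control cells had lost 1 Osr1 allele and the comparison is of heterozygous with homozygous cells. Libraries of 3 dpi each held the cells of 1 mouse, and those of 7 dpi the pooled cells of 4. There were no uninjured samples and no samples of other muscles.

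Hox genes encode homeodomain transcription factors that give cells of the embryo their position along the body. They lie in clusters on different chromosomes, and genes at the same place in each cluster form a paralog group, numbered from anterior (3′) to posterior (5′). In the limb the posterior groups of HoxA and HoxD are used along the axis from shoulder or hip to digit, with groups 9 and 10 needed for the upper segment, 11 for the middle segment and 13 for the foot, while posterior HoxC genes are a mark of the hindlimb. Connective tissue cells of the adult keep much of such a code. The tibialis anterior lies in the middle segment of the hindlimb.

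Levels are given as deposited TPM, a length-normalized share of all transcripts, so that genes can be compared with each other within a library. In this code HoxA, HoxC and HoxD were on and HoxB was almost silent, in all 8 libraries. Of the 39 genes, 11 had a mean of at least 5 TPM over the 8 libraries, 7 had a mean from 1 to under 5 TPM, 19 were lower but not 0 throughout, and 2 (Hoxb13 and Hoxd12) had no fragment in any library. The HoxB genes summed to between 0.103 and 1.04 TPM, while all Hox genes together summed to between 136.7 and 266.04 TPM. The highest HoxB value in any library was 0.368 TPM, for Hoxb9 in an Osr1cKO library at 3 dpi.

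The contrast was sharp within a paralog group. Hoxd8 had 6255 recovered fragments over the 8 libraries and its paralog Hoxb8 had 6, 5 of them in 1 Osr1cKO library at 7 dpi. The promoters of this pair are printed with those of Hoxd9, which with Hoxd8 was higher at 7 dpi in both genotypes, and of Hoxa11, the only member called between genotypes. Each runs from 250 bases before to 50 bases after the RefSeq transcription start on GRCm38.p6, 5′ to 3′ on the strand of the gene. Hoxd8 is at chr2:74704365-74704664 (plus strand), Hoxd9 at chr2:74697513-74697812 (plus strand), Hoxb8 at chr11:96281655-96281954 (plus strand) and Hoxa11 at chr6:52245761-52246060 (minus strand). Capitals mark TTTATNG, the site bound by posterior Hox proteins, on either strand.
Hoxd8: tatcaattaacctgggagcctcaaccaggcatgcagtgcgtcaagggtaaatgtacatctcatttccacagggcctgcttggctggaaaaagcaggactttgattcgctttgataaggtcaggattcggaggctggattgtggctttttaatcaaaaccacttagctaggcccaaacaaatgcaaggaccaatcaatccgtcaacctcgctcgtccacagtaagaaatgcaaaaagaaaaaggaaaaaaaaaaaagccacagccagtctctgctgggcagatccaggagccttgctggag
Hoxd9: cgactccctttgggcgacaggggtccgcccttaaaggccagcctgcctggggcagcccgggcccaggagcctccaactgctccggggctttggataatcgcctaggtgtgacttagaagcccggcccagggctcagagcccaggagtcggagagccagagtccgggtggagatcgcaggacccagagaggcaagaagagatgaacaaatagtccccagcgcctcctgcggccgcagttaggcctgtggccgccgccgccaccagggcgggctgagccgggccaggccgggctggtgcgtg
Hoxb8: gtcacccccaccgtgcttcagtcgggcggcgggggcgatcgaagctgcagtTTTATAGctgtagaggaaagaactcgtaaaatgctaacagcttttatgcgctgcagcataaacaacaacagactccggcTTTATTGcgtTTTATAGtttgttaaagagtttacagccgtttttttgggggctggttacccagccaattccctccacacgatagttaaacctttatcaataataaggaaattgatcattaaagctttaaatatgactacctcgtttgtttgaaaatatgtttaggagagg
Hoxa11: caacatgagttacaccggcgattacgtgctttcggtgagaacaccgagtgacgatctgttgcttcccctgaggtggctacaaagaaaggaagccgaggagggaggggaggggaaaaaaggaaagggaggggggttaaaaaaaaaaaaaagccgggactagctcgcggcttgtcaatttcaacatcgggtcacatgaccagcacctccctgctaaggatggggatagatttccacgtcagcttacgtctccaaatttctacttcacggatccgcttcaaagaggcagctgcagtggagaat

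RefSeq promoters were matched for 22 of the 39 genes, among them no HoxC gene but Hoxc4. TTTATNG was found in 2 of the 22 (Hoxb8 and Hoxd4, with 3 matches each) and in 11.3% of 27025 promoters. The matches in Hoxb8 that read TTTATAG also hold TTTATA, the reverse complement of the TATA box, so both motifs overlap there. The TATA box (TATAAA) was found in 3 of the 22 against 14.2% of all promoters, TGATNNAT, a Pbx-Hox site, in 3 against 9.04%, and TGACAG, a Meis site, in 2 against 19.3%, each searched on both strands. The median count of CG dinucleotides was 13.5 in the 22 Hox promoters and 7 in all promoters. Hoxd8 had 6, Hoxb8 13, Hoxa11 15 and Hoxd9 20, so the almost silent Hoxb8 lay between the expressed genes.

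**Figure D1:**
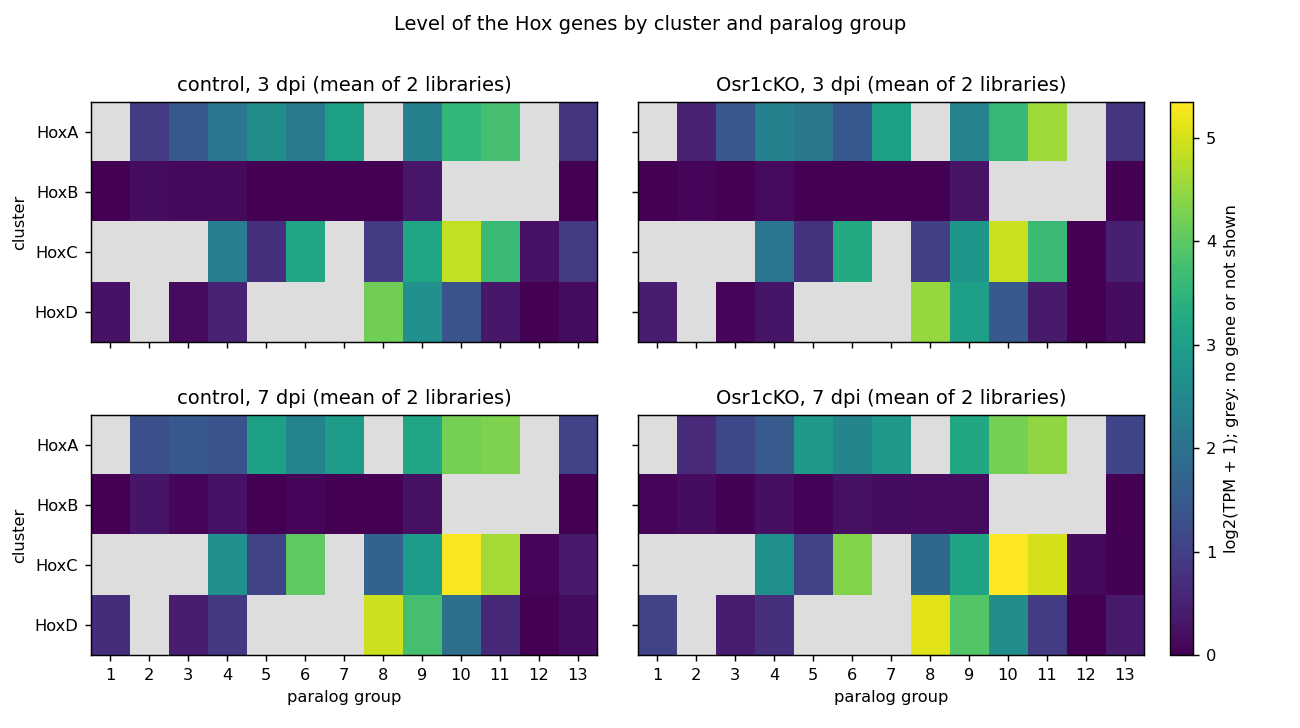
Mean level of the Hox genes in the 4 groups, as log2(TPM + 1) in color, with the cluster on the vertical axis, the paralog group on the horizontal axis and grey where the mouse has no gene or the gene is not shown. HoxB is dark in every group, and in HoxC the brightest gene is Hoxc10.

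Posterior genes made up most of the Hox transcript level. Paralog groups 9 to 11 held between 53.5% and 65.0% of the summed Hox TPM, groups 5 to 8 between 26.1% and 34.2%, groups 1 to 4 between 5.03% and 10.2%, and groups 12 and 13 between 0.498% and 2.09%. Levels were low beyond group 11. Hoxa13, the highest gene of groups 12 and 13 by its mean, lay between 0.636 and 1.47 TPM, and Hoxd13 between 0.0308 and 0.461 TPM. The highest single value was that of Hoxc13 in control library 1 at 3 dpi, at 1.53 TPM, against 0 to 0.528 TPM in the other 7 libraries. The mean paralog number weighted by TPM lay between 8.29 and 8.85. Its lowest value belonged to control library 1 at 3 dpi, and the other 7 libraries lay between 8.67 and 8.85.

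By cluster, HoxC held between 39.4% and 46.0% of the Hox TPM and HoxA between 29.7% and 39.5%. The share of HoxA was 35.4% to 39.5% in the 4 libraries at 3 dpi and 29.7% to 33.9% in the 4 libraries at 7 dpi, so the days did not overlap. The share of HoxD was 16.1% to 22.8% at 3 dpi and 22.4% to 24.6% at 7 dpi, and here they did. Within HoxD, Hoxd8 and Hoxd9 were high while Hoxd10 and Hoxd11, their posterior neighbors, had means of 2.91 and 0.503 TPM. In HoxA, by contrast, Hoxa10 and Hoxa11 were the highest genes of the cluster, with means of 14.3 and 18.8 TPM.

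**Figure D2:**
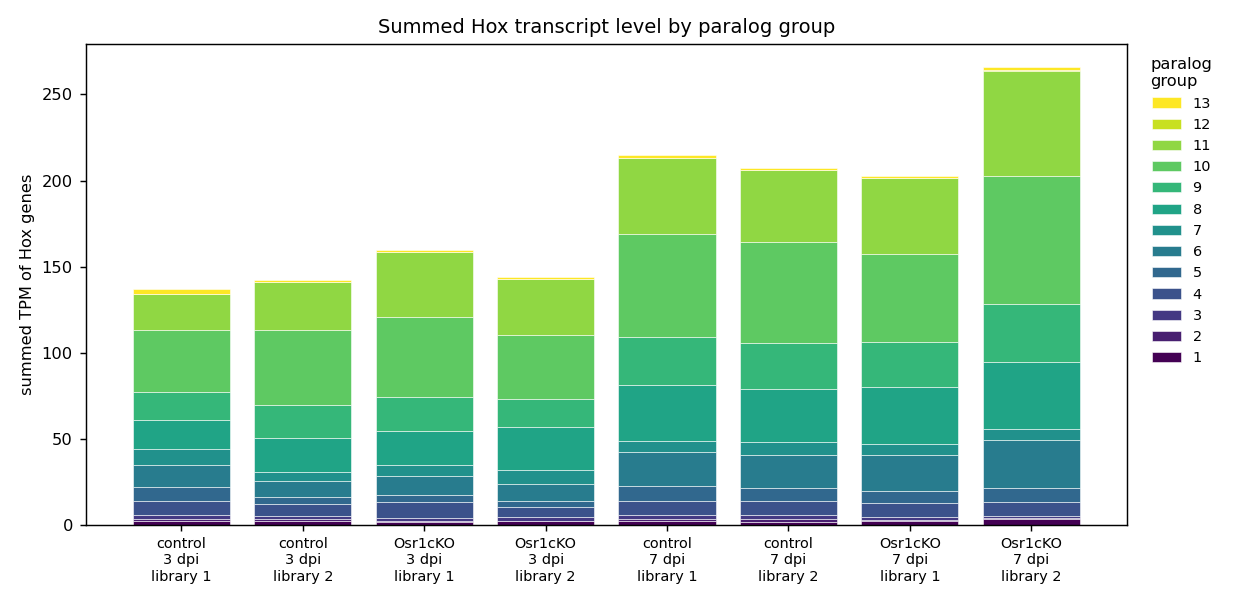
Summed TPM of all Hox genes in each of the 8 libraries, stacked by paralog group. The 4 libraries at 3 dpi sum to between 136.7 and 159.5 TPM and the 4 libraries at 7 dpi to between 202.5 and 266.04 TPM.

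Hoxc10, the highest Hox gene, was at 26.5 and 29.4 TPM in controls and 31.9 and 26.9 TPM in Osr1cKO at 3 dpi, and at 39.7 and 36.8 TPM in controls and 33.6 and 45.6 TPM in Osr1cKO at 7 dpi. Its libraries were higher at 7 dpi than at 3 dpi in both genotypes, and the genotypes overlapped on both days. Of its exon bases, 8.70% are shared with Hoxc5 on the same strand, so a part of its fragments could be counted for either. Hoxd8 was at 15.5 and 19.0 TPM in controls and 19.2 and 23.8 TPM in Osr1cKO at 3 dpi, and at 30.3 and 29.0 TPM in controls and 31.1 and 35.7 TPM in Osr1cKO at 7 dpi. Both Osr1cKO libraries lay above both controls on each day, although the nearest libraries were close.

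Hoxc11 was at 10.7 and 12.3 TPM in controls and 11.3 and 11.8 TPM in Osr1cKO at 3 dpi, against 25.8 and 21.3 TPM in controls and 26.1 and 36.0 TPM in Osr1cKO at 7 dpi. Hoxc6, a more anterior gene of the same cluster, was at 7.84 and 7.80 TPM in controls and 8.86 and 8.31 TPM in Osr1cKO at 3 dpi, against 14.9 and 15.5 TPM in controls and 16.5 and 22.5 TPM in Osr1cKO at 7 dpi. In both genes every library at 7 dpi lay above every library at 3 dpi. Hoxc9, which lies between them, showed no such step, with 6.91, 8.67, 7.68 and 4.56 TPM at 3 dpi and 6.83, 6.41, 7.32 and 8.09 TPM at 7 dpi, controls first.

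Hoxa11, needed for the middle segment of the limb, was at 9.97 and 15.2 TPM in controls and 25.8 and 20.1 TPM in Osr1cKO at 3 dpi, and at 18.0 and 19.7 TPM in controls and 17.1 and 24.7 TPM in Osr1cKO at 7 dpi. The control libraries at 3 dpi stood below the 6 others. Its neighbor Hoxa10 was at 8.89 and 12.2 TPM in controls and 12.1 and 9.74 TPM in Osr1cKO at 3 dpi, and at 16.9 and 18.8 TPM in controls and 13.5 and 22.0 TPM in Osr1cKO at 7 dpi. Its genotypes overlapped on both days and its days did not overlap in either genotype.

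Hoxd9 was at 4.85 and 6.18 TPM in controls and 7.29 and 6.97 TPM in Osr1cKO at 3 dpi, against 12.1 and 13.1 TPM in controls and 11.9 and 16.1 TPM in Osr1cKO at 7 dpi. Hoxa9, of the same paralog group, was at 4.33, 3.76, 3.99 and 4.32 TPM at 3 dpi and 8.91, 7.11, 7.02 and 9.36 TPM at 7 dpi, controls first. In both, every library of the later day lay above every library of the earlier day, unlike in Hoxc9 of the same group. Hoxa7 stayed between 5.27 and 9.13 TPM over all 8 libraries, with its highest and its lowest value both in controls at 3 dpi. Hoxa5 was at 6.84 and 3.56 TPM in controls and 3.45 and 3.25 TPM in Osr1cKO at 3 dpi, and between 6.15 and 8.11 TPM in the 4 libraries at 7 dpi.

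**Figure D3:**
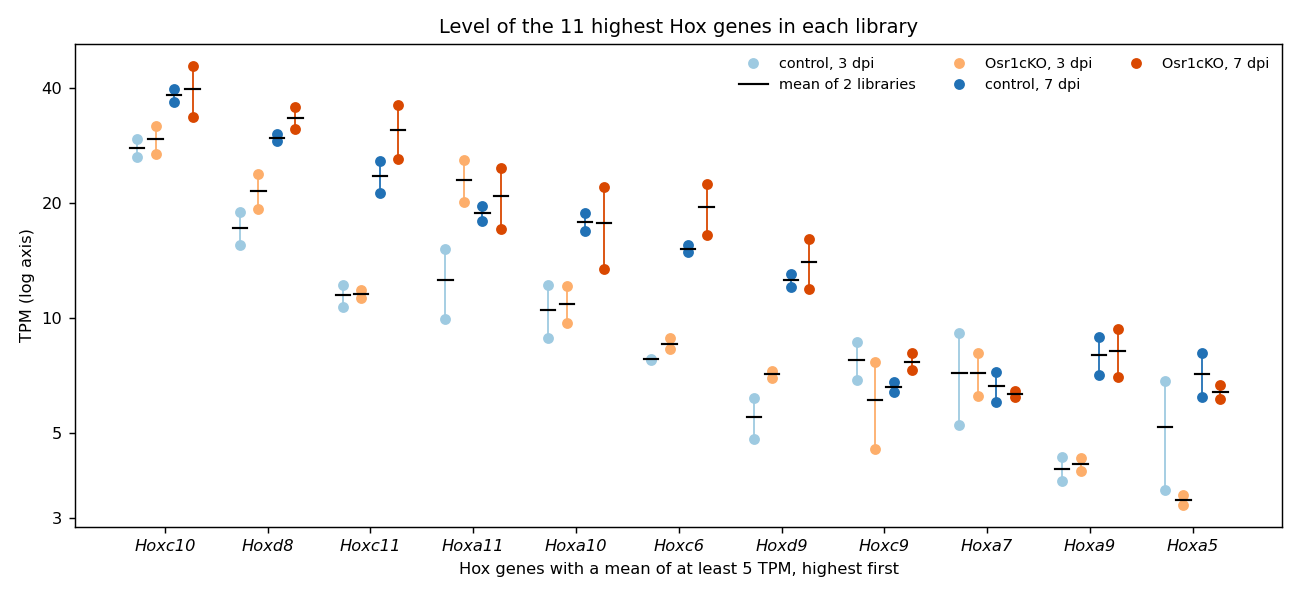
TPM (log axis) of the 11 Hox genes with a mean of at least 5 TPM, a point for each of the 8 libraries, with a line between the 2 libraries of a group and a black bar at their mean. Among others, Hoxc11, Hoxc6, Hoxd9 and Hoxa9 show both groups at 7 dpi above both groups at 3 dpi, and for Hoxa11 the controls at 3 dpi lie below the other groups.

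Several facts of the whole series bear on the comparisons. Recovered depth was 46401708 to 51096594 fragments on genes at 3 dpi and 36516588 to 41163450 at 7 dpi. FAP genes were high throughout (Pdgfra between 197 and 365 TPM), but the 8 listed were not all steady. Of these 8, which include Osr1, 2 were called lower in Osr1cKO at 3 dpi, against 3.87% of all genes, and none higher. At 7 dpi none was called and none had a log2 difference above 0, with a median of -0.15. Between days 4 were called higher and 3 lower in controls, against 22.7% and 27.3% of all genes. In Osr1cKO it was 4 and 2, against 27.2% and 29.4%. Ptprc (at most 0.216 TPM) and Sox10 (at most 0.0341 TPM), which mark blood cells and Schwann cells, were close to 0. The full lists were not. The 7 markers of macrophages and other blood cells summed to 8.14 to 16.4 TPM at 3 dpi and 16.9 to 22.0 TPM at 7 dpi. The 3 Schwann markers summed to 0.394 to 0.962 TPM and then 0.694 to 2.97 TPM. Osr1 itself was at 105 and 91.0 TPM in controls and 70.7 and 71.9 TPM in Osr1cKO at 3 dpi, and at 67.6 and 71.6 TPM in controls and 64.4 and 60.8 TPM in Osr1cKO at 7 dpi. These values per gene do not tell how much of this comes from the recombined allele. From reads per exon, the paper reports that the floxed exon was efficiently deleted and that the exon after it lacked expression. Xist, made from the inactive X of females, was at 33.9 to 52.9 TPM in the 4 libraries at 3 dpi and the Y-linked Ddx3y was at 0. At 7 dpi Ddx3y was at 47.5 and 48.6 TPM in controls and 10.5 and 2.22 TPM in Osr1cKO, with Xist at 12.4 and 0.0252 TPM against 109.9 and 102.6 TPM. The sex makeup thus moved with day, and at 7 dpi with genotype, and its part in the Hox values cannot be told apart from these. Control library 1 at 3 dpi stood somewhat apart, with Kdr, an endothelial gene, at 16.8 TPM and 0.88 to 2.25 TPM in the other 7 libraries.

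The genotypes were compared first, on each day by itself, to see where homozygous loss of Osr1 moved the Hox code. The test was limma on log2(TPM + 1), a scale that understates the change of genes at low levels. At 3 dpi the thresholds of the study were a fold change over 1.2 and p under 0.05 before adjustment. Of 15699 genes tested, 6.27% were called, and of 25 Hox genes that passed the filter on low fragments, 1 was called: Hoxa11, higher in Osr1cKO by a log2 fold change of 0.84 ± 0.27 (SE), with a 95% interval from 0.16 to 1.52. Its p was 0.0245 and its Benjamini-Hochberg adjusted p in limma 0.774. Of all genes 2.4% were called higher and 3.87% lower. No gene of the 15699 passed an adjusted p under 0.1, and 1 Hox gene and 985 genes in all had an unadjusted p under 0.05.

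The call for Hoxa11 rested on single libraries. Without control library 1 the log2 fold change was 0.55 (limma, adjusted p = 0.854), and without Osr1cKO library 1 it was 0.64 (limma, adjusted p = 0.9995), and neither was called. Of the exon bases of Hoxa11, 35.0% lie opposite Hoxa11os, an antisense RNA of the same locus. Hoxa11os was at 3.61 and 5.58 TPM in controls and 5.14 and 6.68 TPM in Osr1cKO at 3 dpi, so its groups overlapped. The libraries kept strand, but whether the counting used it is not given in the sources used here.

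The other 24 Hox genes tested at 3 dpi had log2 fold changes between -0.60 and 0.33, and the median over all 25 was 0.03, against 0.01 over all genes. For the highest gene, Hoxc10, the difference was 0.07 with an interval from -0.35 to 0.49, and for Hoxd8 it was 0.30 with an interval from -0.17 to 0.78. The deposited TPM did not overlap between genotypes in 4 Hox genes that were higher in Osr1cKO (Hoxa11, Hoxc6, Hoxd8 and Hoxd9) and 4 that were lower (among them Hoxa2, Hoxa5 and Hoxd4). In all genes the shares were 18.2% and 18%. With 2 libraries a group, an exact permutation test of a single gene cannot go below p = 0.333.

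At 7 dpi, where a call needed an adjusted p under 0.1, 0 of 25 Hox genes tested were called, and 0.0664% of 16578 genes. With p under 0.05 before adjustment and a fold change over 1.2, limma gave 2 Hox genes, both anterior HoxA genes and both lower in Osr1cKO, with 11.1% of all genes. Hoxa2, which patterns the hindbrain and the second pharyngeal arch, was at 1.36 and 1.58 TPM in controls and 0.586 and 0.586 TPM in Osr1cKO. The groups did not overlap, and the log2 fold change was -0.70 ± 0.13 (SE; limma, adjusted p = 0.225). Hoxa3, its neighbor, was at 1.67 and 1.91 TPM in controls and 1.35 and 1.14 TPM in Osr1cKO, with a log2 fold change of -0.39 ± 0.15 (SE; limma, adjusted p = 0.375).

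Hoxa2 had also been lower at 3 dpi, where it was at 0.769 and 1.11 TPM in controls and 0.623 and 0.258 TPM in Osr1cKO, with a log2 fold change of -0.43 ± 0.20 (SE; limma, adjusted p = 0.824). The comparisons of the genotypes at 3 and at 7 dpi share no library. Hoxa2 is singled out here after its values were seen. It had 139 recovered fragments over the 8 libraries, and 15.04% of its exon bases are shared with Gm28308, an annotated transcript that joins it with Hoxa3.

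At 7 dpi the log2 difference between Osr1cKO and control was -0.09 for Hoxc10, with an interval from -0.44 to 0.26, and 0.04 for Hoxd8, with an interval from -0.19 to 0.27. For Hoxa10 the interval was wider, from -0.70 to 0.36. For Hoxd10, the widest positive difference, it was 0.52 with an interval from -0.06 to 1.11, from 2.96 and 2.94 TPM in controls to 3.84 and 6.71 TPM in Osr1cKO. The median over the 25 Hox genes was -0.05, against 0.01 over all genes. Of the Hox genes 10 had a difference above 0, against 51.2% of all genes, and 16 did when the deposited TPM were not scaled further, a choice that moved the median of all genes to 0.11. In deposited TPM the genotypes did not overlap in 7 Hox genes that were higher in Osr1cKO and in 2 that were lower, with 42.8% and 10.7% of all genes. Markers of tendon cells went with genotype as well. The 4 tendon markers summed to 238.3 and 333.03 TPM in controls and to 550.4 and 677.3 TPM in Osr1cKO at 7 dpi, where none was called but all 4 had a log2 difference above 0, with a median of 0.80. At 3 dpi they summed to 48.8 and 61.1 TPM in controls and to 46.7 and 83.0 TPM in Osr1cKO, and all 4 differences, none of them called, were above 0 with a median of 0.59. Sums of some other lists went with genotype too, with no marker called. At 3 dpi the endothelial, blood, myofiber and pericyte sums were lower in both Osr1cKO libraries than in both controls. The 5 endothelial markers summed to 21.2 and 44.4 TPM in controls and 17.2 and 18.0 TPM in Osr1cKO. At 7 dpi only the myofiber sum was lower so, at 32.7 and 50.6 TPM against 22.8 and 25.7 TPM. The part of all these markers in the Hox differences between genotypes was not tested.

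**Figure D4:**
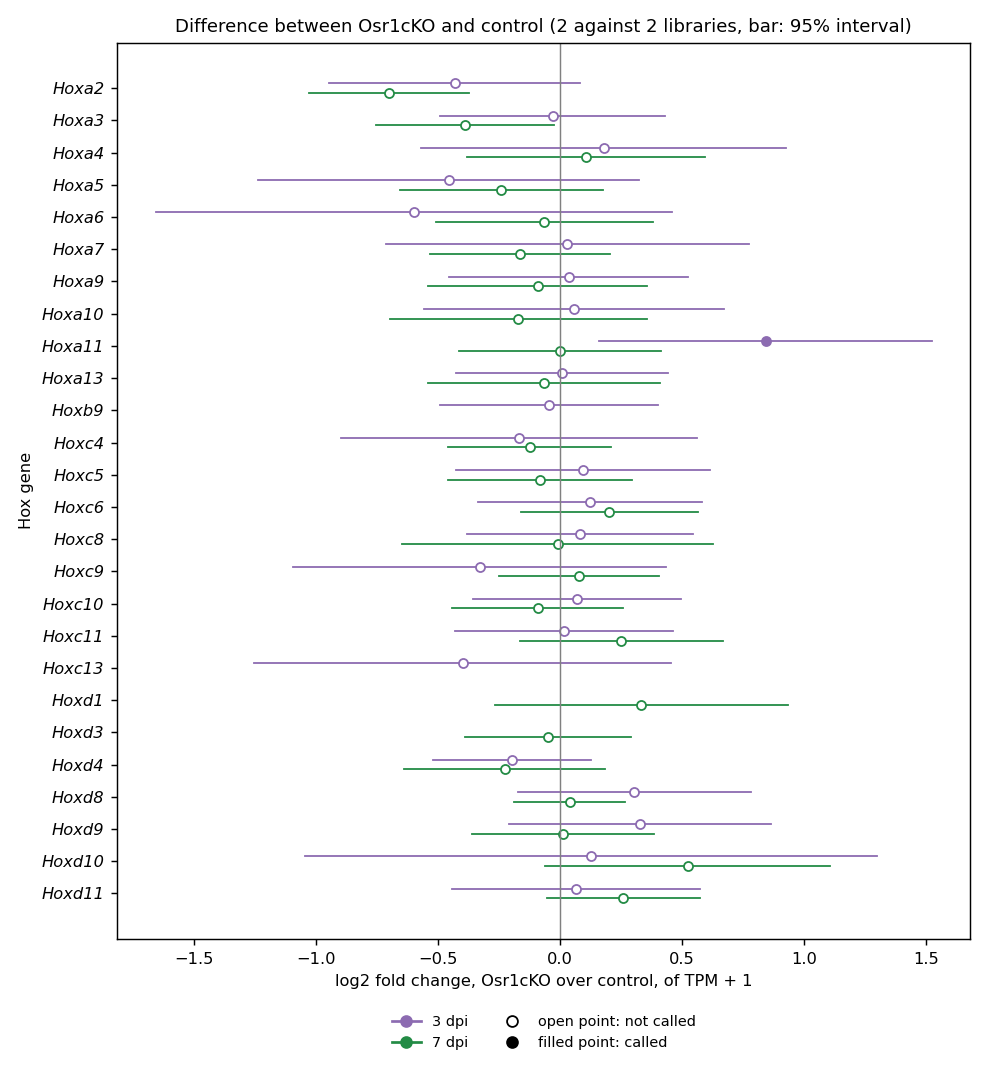
Log2 fold change of Osr1cKO over control for the tested Hox genes reported here, at 3 and at 7 dpi, with 95% intervals from limma and filled points where a gene was called. The filled point is Hoxa11 at 3 dpi, at 0.84, and Hoxa2 and Hoxa3 at 7 dpi have intervals below 0 but are open.

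Whether the effect of genotype differed between the days was tested as an interaction over the 8 libraries. None of 27 Hox genes was called at an adjusted p under 0.1, and 0% of 17371 genes. At an unadjusted p under 0.05 there were 1 Hox gene and 1208 genes (6.95%). The gene was Hoxa11, whose difference between genotypes was 0.89 smaller on the log2 scale at 7 dpi than at 3 dpi (interaction -0.89 ± 0.36 SE; limma, adjusted p = 0.716). At 7 dpi its own difference was 0.00 with an interval from -0.41 to 0.41.

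The days were then compared within each genotype, to see how the Hox code of these cells moved from early to later regeneration. In controls, where calls needed an adjusted p under 0.1, 9 of 25 Hox genes tested were higher at 7 dpi and 2 were lower, against 22.7% and 27.3% of 16525 genes. The risers were posterior or central genes, namely Hoxa9, Hoxa10, Hoxa11, Hoxc6, Hoxc8, Hoxc10, Hoxc11, Hoxd8 and Hoxd9. Among those that fell was Hoxa4, of whose exon bases 16.0% lie opposite antisense transcripts. The median log2 fold change of the 25 was 0.41 and that of all genes -0.01.

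The largest of these rises were those of Hoxd9 (log2 fold change 1.12 ± 0.19 SE; limma, adjusted p = 0.0128), Hoxc11 (1.03 ± 0.17; adjusted p = 0.0124) and Hoxc6 (0.93 ± 0.15; adjusted p = 0.0107). Hoxa9 rose by 0.88, Hoxd8 by 0.81, Hoxc8 by 0.78, Hoxa10 by 0.77, Hoxa11 by 0.62 and Hoxc10 by 0.50. Hoxc8, the only one of the risers under a mean of 5 TPM, went from 1.13 and 0.694 TPM to 2.49 and 1.92 TPM. Hoxa4 went from 3.07 and 3.55 TPM to 1.16 and 1.99 TPM, a log2 fold change of -0.72 ± 0.23 (limma, adjusted p = 0.061). By paralog group, 6 of 11 tested genes of groups 9 to 13 rose and none fell, and in groups 5 to 8 it was 3 of 7 and none. In groups 1 to 4 none of 7 rose and 2 fell.

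These calls needed both control libraries of the later day: without library 1 or library 2 at 7 dpi, 0 Hox genes were called, with 1518 and 0 of all genes against 8259 with both. The median difference did not shrink, and was 0.48 and 0.59 on the log2 scale over the 24 Hox genes then tested. Single genes could move either way. Hoxc11 ranged from 0.92 to 1.22 when a library of either day was left out.

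In Osr1cKO, 13 of 24 Hox genes tested were higher at 7 dpi and 1 was lower, against 27.2% and 29.4% of 16279 genes. The risers were Hoxa5, Hoxa6, Hoxa9, Hoxc4, Hoxc6, Hoxc8, Hoxc11, Hoxd1, Hoxd4, Hoxd8, Hoxd9, Hoxd10 and Hoxd11, which include all 6 HoxD genes tested. Of these, Hoxd1 and Hoxd4 passed the filter on low fragments only through the libraries at 7 dpi, which favored a rise. Hoxd1 had 1 and 15 fragments at 3 dpi and 13 and 28 at 7 dpi. Hoxd4 had 10 and 8, then 18 and 19. The gene that fell was Hoxa4. Split by paralog group, 5 of 10 tested genes of groups 9 to 13 rose and 5 of 7 of groups 5 to 8. In groups 1 to 4 it was 3 of 7, Hoxd1 and Hoxd4 among them, and 1 fell. The third riser there was Hoxc4, with a log2 fold change of 0.55, and of 0.49 in controls, where it was not called. The counts in groups 1 to 4 thus do not show a difference between the genotypes. The median log2 fold change of the 24 was 0.53 and that of all genes 0.00. Without Osr1cKO library 2 at 7 dpi, 6 Hox genes were called, while calls over all genes went from 9215 to 5555 and the median over the Hox genes was 0.41.

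Hoxc11 had the largest rise (log2 fold change 1.27 ± 0.16 SE; limma, adjusted p = 0.00329), followed by Hoxd10 (1.14 ± 0.39; adjusted p = 0.061) and Hoxc6 (1.02 ± 0.17; adjusted p = 0.00686). Hoxa6 rose by 0.91, Hoxd9 by 0.81, Hoxa9 by 0.77, Hoxa5 by 0.72, Hoxc8 by 0.71, Hoxd8 by 0.56 and Hoxc4 by 0.55. Of the low genes, Hoxd1 rose by 0.67, Hoxd11 by 0.51 and Hoxd4 by 0.40. Although Hoxd1 was called (limma, adjusted p = 0.0986), its interval ran from -0.03 to 1.38 and so included 0. Hoxa4 went from 5.11 and 2.87 TPM to 1.89 and 1.89 TPM, a log2 fold change of -0.80 ± 0.26 (limma, adjusted p = 0.0535).

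Several of these genes rested on few fragments or on spread libraries. Hoxd10 went from 2.74 and 0.925 TPM to 3.84 and 6.71 TPM in Osr1cKO, and was at 0.796 and 2.38 TPM at 3 dpi and 2.96 and 2.94 TPM at 7 dpi in controls. Hoxd1 went from 0.0424 and 0.615 TPM to 0.726 and 1.57 TPM, and was not tested in controls. Hoxd11 went from 0.450 and 0.181 TPM to 0.938 and 0.865 TPM. Hoxd4 went from 0.268 and 0.207 TPM to 0.635 and 0.671 TPM, and 52.3% of its exon bases are shared with other annotated transcripts of the same strand. Each of these genes had both libraries of the later day above both of the earlier day.

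In HoxA and HoxC, Hoxa6 went from 1.99 and 1.57 TPM to 3.93 and 4.88 TPM in Osr1cKO. In controls it was at 5.33 and 1.80 TPM at 3 dpi, a spread that covers the 4.78 and 3.73 TPM of 7 dpi. Hoxc4 went from 3.75 and 2.80 TPM to 5.43 and 5.47 TPM in Osr1cKO, and from 4.91 and 2.88 TPM to 5.56 and 5.47 TPM in controls. Hoxc8 went from 0.921 and 1.11 TPM to 1.65 and 3.31 TPM in Osr1cKO.

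The comparisons of the days in the 2 genotypes share no library. Of the 9 genes called higher in controls and the 13 called higher in Osr1cKO, 6 were the same (Hoxa9, Hoxc6, Hoxc8, Hoxc11, Hoxd8 and Hoxd9), which is 66.7% and 46.2%. Over all genes, 2829 were called higher in both, which is 75.4% of those of controls and 64.0% of those of Osr1cKO. Of the genes that fell, Hoxa4 was called in both. Genes called in only 1 genotype were not shown to differ between genotypes, since no Hox gene passed the test of the interaction. Hoxa10 and Hoxc10, called in controls, had log2 fold changes of 0.56 (interval -0.05 to 1.17) and 0.35 (interval -0.08 to 0.77) in Osr1cKO. Hoxa11 stood at -0.21 there (interval -0.73 to 0.31).

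In deposited TPM the days did not overlap in 17 of 25 Hox genes that were higher at 7 dpi in controls and in 3 that were lower, with 33.5% and 41.4% of all genes. In Osr1cKO the counts were 16 and 2 of 24, with 40.6% and 36.5%. The higher genes include some that passed the filter only through the libraries at 7 dpi, a low HoxD gene in controls and Hoxd1 and Hoxd4 in Osr1cKO. Hoxa7, Hoxa13, Hoxc5 and Hoxc9 were among the genes called in neither genotype.

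**Figure D5:**
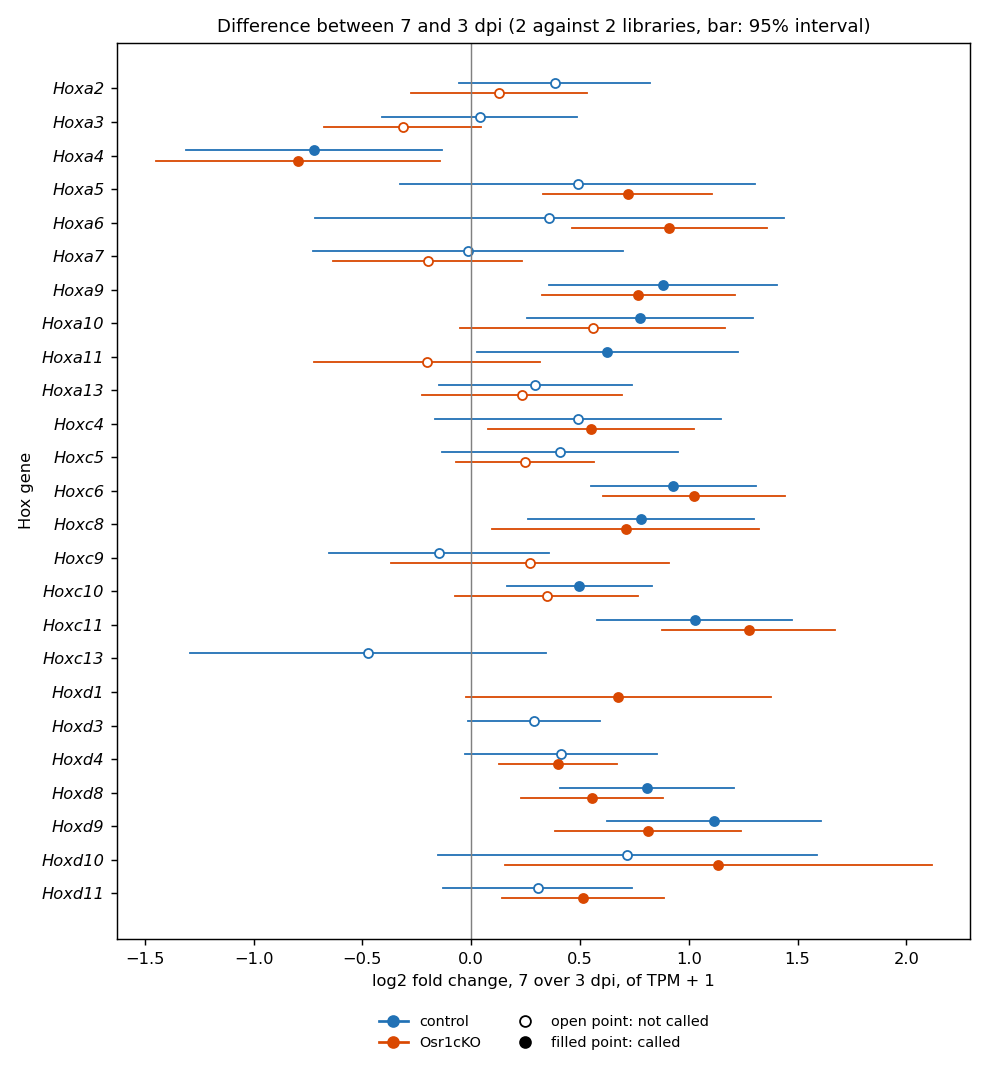
Log2 fold change of 7 over 3 dpi for the tested Hox genes reported here, in controls and in Osr1cKO, with 95% intervals from limma and filled points where a gene was called. Filled points of both genotypes lie to the right for 6 genes, Hoxc11 farthest in Osr1cKO at 1.27, and to the left for Hoxa4.

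Day moved together with other properties of the libraries, whose part in the Hox differences cannot be told apart from it. Libraries held 1 mouse at 3 dpi and 4 at 7 dpi, the libraries at 7 dpi were less deep, and RNA from Y-linked genes was present at 7 dpi and not at 3 dpi. Which day ran on which of the instruments named in the methods is not settled. Markers of other cells of the muscle were also higher at 7 dpi. The 4 tendon markers, all called higher at 7 dpi in both genotypes, summed to 46.7 to 83.0 TPM at 3 dpi and 238.3 to 677.3 TPM at 7 dpi, and Tnmd, a gene of tendon cells, went from 2.85 to 4.73 TPM to 64.9 to 350.2 TPM. The 3 pericyte markers summed to 2.63 to 4.504 TPM and then 18.8 to 74.1 TPM, and the 4 myofiber markers to 4.74 to 5.81 TPM and then 22.8 to 50.6 TPM. All 7 were called higher in both genotypes, where 22.7% of all genes in controls and 27.2% in Osr1cKO were. Of 5 blood markers tested, 1 was called higher at 7 dpi in controls and 4 in Osr1cKO. The 5 endothelial markers summed to 17.2 to 44.4 TPM, with the highest sum in control library 1, and then to 46.0 to 71.2 TPM. The 4 muscle stem cell markers summed to 4.42 to 7.34 TPM and then 11.02 to 22.5 TPM, with Pax7 at 0 to 0.0134 TPM and then 0.170 to 2.30 TPM. Fewer cells of a type and less RNA per cell cannot be told apart in such libraries, and the part of these cells in the Hox values was not tested.

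Hox proteins bind DNA with TALE homeodomain cofactors of the Pbx, Meis and Pknox families, and all 9 were tested in each comparison. None was called between genotypes at 3 or at 7 dpi. Between days, Pknox2 fell in both genotypes, from 12.8 and 17.7 TPM to 6.88 and 9.03 TPM in controls (log2 fold change -0.81 ± 0.23 SE; limma, adjusted p = 0.0492) and from 19.4 and 17.1 TPM to 6.98 and 7.95 TPM in Osr1cKO (-1.24 ± 0.14; adjusted p = 0.00273). Meis3 rose in Osr1cKO (0.61 ± 0.15; limma, adjusted p = 0.022), from 16.3 and 13.8 TPM to 25.7 and 23.3 TPM, and was not called in controls, where it was at 26.7 and 17.3 TPM and then at 24.7 and 26.2 TPM.

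Of 19 factors of the limb field and its axes, 17 were tested. Pitx1 and Tbx4, which specify the hindlimb, were on in every library (11.8 to 19.7 and 6.12 to 12.9 TPM), while Tbx5, which specifies the forelimb, was at 0.269 to 1.24 TPM. None of the 17 was called between genotypes at 3 or 7 dpi. Between days 6 of the 17 rose and 1 fell in controls, against 22.7% and 27.3% of all genes. In Osr1cKO 6 rose and 2 fell, against 27.2% and 29.4%. Emx2 (1.05 ± 0.14 in controls and 1.10 ± 0.13 in Osr1cKO on the log2 scale) and Shox2 (1.001 ± 0.15 and 0.96 ± 0.10), a gene needed for the upper segment of the limb, moved most, while Prrx1, a general factor of limb mesenchyme, fell by 0.55 and 0.30.

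Polycomb proteins keep Hox genes silent and trithorax proteins keep them active. Of 23 such regulators tested, 2 were called between genotypes at 3 dpi, both lower in Osr1cKO, against 3.87% of all genes called lower. Among the 2 was Phf19 (log2 fold change -0.68, adjusted p in limma 0.774). None was called at 7 dpi. Between days 5 of the 23 rose and 4 fell in controls, against 22.7% and 27.3% of all genes. In Osr1cKO 7 rose and 2 fell, against 27.2% and 29.4%. The counts of rises were near the shares of all genes. Jarid2 rose in both (1.12 and 0.84), and Phf19 fell in both (-1.56 and -0.66). Kdm6a, which lies on the X chromosome, was called higher at 7 dpi in Osr1cKO (0.85). Xist was highest in that group, which also held the Y-linked Ddx3y (10.5 and 2.22 TPM, against 0 at 3 dpi). A part of sex makeup in the change of Kdm6a was not tested.

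Of 19 genes inside or beside the clusters, between 4 and 7 passed the filter in a comparison. Hotair, a long RNA from the HoxC cluster between Hoxc11 and Hoxc12, was at 0.228 to 0.320 TPM at 3 dpi and 1.16 to 2.54 TPM at 7 dpi, and rose in controls (0.78 ± 0.13; limma, adjusted p = 0.0114) and in Osr1cKO (1.17 ± 0.21; adjusted p = 0.00873). Hoxd3os1 rose in both as well (0.92 and 0.66). Hottip, beside Hoxa13, stayed at or under 0.289 TPM, and Evx1, on the far side of Hoxa13, was at 0 in every library. Between genotypes 4 of the 19 were tested at 3 dpi and 6 at 7 dpi, and none was called. Between days it was 5 in controls and 6 in Osr1cKO. More were thus tested than at 3 dpi, and any that passed the filter only through the libraries at 7 dpi were favored for a rise. Hotair, low at 3 dpi, may be among them.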

How the data were processed

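GFP+ FAPs were sequenced in 8 libraries, 2 per genotype and day. Reads, paired-end and stranded, were aligned by the authors with STAR (mm10), and TPM values, normalized with DESeq2, were deposited for each gene symbol. The counter, its annotation and its use of strand are not given in the sources used here. Of 55385 entries, 109 further entries of 106 repeated symbols were left out. GENCODE M21 exon lengths turned the deposited TPM into fragments: between 98.7% and 98.9% of values under 50 lay within 0.02 of a whole number, with 36516588 to 51096594 fragments per library. Floors of 3 fragments cover counting error only.

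The tests were limma 3.58.1 (lmFit, eBayes with a trend, two-sided) in R 4.3.3 on log2(TPM + 1), with library scaling by trimmed means (30%) of log ratios. A gene entered a test with 10 or more fragments in 2 libraries and 15 or more in all; 2001 symbols without a length needed a mean TPM of at least 1. Each comparison of a pair of groups used its 4 libraries, and the interaction all 8. A call was a fold change above 1.2 with p under 0.05 before adjustment (genotype at 3 dpi) or with a Benjamini-Hochberg adjusted p under 0.1 (all others). p-values were adjusted over all genes tested. Libraries of a group come from separate mice or pools. Whether replicate numbers pair the samples was checked, and no sign of it was seen, although 2 libraries a group cannot exclude it. The procedure was also run on simulated counts with the same spread for every gene and no difference in sex or cell makeup between libraries. That run cannot tell how the tests behave under the spread and makeup of these libraries. Python 3.11.15, pandas 2.3.3 and NumPy 2.4.6 were used.

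Members and lists were chosen with earlier results of these data known. Named with every library were members with a mean of at least 5 TPM and those called in any comparison; Hoxa2 and Hoxa3 were added after their values were seen. Some genes count in the totals but are not reported here by name. Alternatives were other filters, scalings, pseudocounts, models, thresholds, a single fit over the 8 libraries, the replicate number as a block and leaving out each library.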

Additional observations from a re-analysis of the deposited data

How the results depend on the processing

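The 26 called values of single Hox genes kept their direction under every alternative run, while 52 of the 100 values that were not called changed direction under at least 1. At 3 dpi, 2 Hox genes were called in the fit of all 8 libraries (1759 of all genes, against 985), 0 at an adjusted p under 0.1 (0 of all genes) and between 0 and 4 when a library was left out. The 0 came without control or Osr1cKO library 1 (931 and 653 of all genes) and the 4 without control library 2 (2804 of all genes). At 7 dpi, 2 were called at an unadjusted p under 0.05 (1844 of all genes), and for the interaction 1 (1208). For the days, 5 were called in controls (6615 of all genes, against 8259) and 9 in Osr1cKO (8161, against 9215) without a filter on low values, where more genes were tested, and leaving out a library gave between 0 and 15 in controls and between 6 and 15 in Osr1cKO. Among single genes that were not called, the genotype difference of Hoxc10 at 3 dpi ranged from -0.0757 to 0.213 on the log2 scale when a library was left out. At 7 dpi, TPM without further scaling turned Hoxa11 to 0.123 and Hoxc10 to 0.0346. Leaving out a library at 7 dpi gave between -0.228 and 0.215 for Hoxa11, -0.282 and 0.0861 for Hoxc10 and -0.0322 and 0.0983 for Hoxd8, and for the day difference of Hoxa11 in Osr1cKO between -0.412 and 0.0661. The cause was not tested. Where a library is left out, the lone library is assumed to vary like the others.

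Replicate numbers are shared by the groups. The correlation of deviations of same-numbered libraries was -0.13 at 3 dpi and 0.06 at 7 dpi. Between days it was -0.16 in controls and -0.09 in Osr1cKO. These values give no sign of pairing, but with 2 libraries a group they cannot exclude a shared batch. With the replicate block, 1, 0, 10, 13 and 0 Hox genes were called, in the order genotype at 3 dpi, genotype at 7 dpi, day in controls, day in Osr1cKO and interaction, with 980, 27, 7115, 8735 and 0 of all genes. Crossed numbers as a block, chosen after seeing the data, gave 2 at 3 dpi and 11 for the day in controls, with 1168 and 8395 of all genes.

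Depth limits the HoxB genes and others at a mean under 1 TPM most: 3 fragments were worth up to 0.357 TPM for Hoxa6, the shortest member, and up to 0.118 TPM for Hoxb8. Between 12 and 15 of the 39 genes were under the filter in each comparison. Without the filter between 33 and 37 were tested.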
